A study of Mus musculus with 2 samples.

Results

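The immediate early genes are switched on within minutes of a stimulus, before any new protein has to be made, and their transcripts are short-lived. Several encode subunits of AP-1, a transcription factor built as a dimer of a Fos protein with a Jun protein, or of Jun proteins with each other. In blood stem cells, AP-1 and Egr1 are known as readouts of growth factor, adhesion and stress signals, and Egr1 is known from mouse genetics to hold hematopoietic stem cells in quiescence and in the marrow. The genes described are the Fos proteins Fos and Fosb, the Jun proteins Jun, Junb and Jund, the AP-1 relative Atf3, the zinc finger factor Egr1, the orphan nuclear receptor Nr4a1, the phosphatase gene Dusp1 and the nuclear protein gene Ier2. They are 10 of 18193 genes named on the array, read by 12 of its 45037 probe sets. A probe set was taken where the platform annotation named 1 of these genes and no other, by symbol or synonym, and 0 of the 12 were matched through a synonym only. Jun and Jund had 2 probe sets each and the other genes 1.

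The samples were mouse hematopoietic stem cells (HSC, the rare marrow cells from which every blood lineage descends), profiled on 2 Affymetrix arrays that read the 3' part of transcripts. The first held total RNA of cells with the genotype SIRT6 knockout and the other total RNA of wild type cells, both from mice aged 3 months and with no treatment named. Sirt6 is a nuclear NAD-dependent deacylase of histones. Each genotype had 1 array, so no difference below carries a replicate error, and no test, SD between samples or p-value was computed. In the sources used here the Sirt6 allele, the sort that defined the cells and the number of animals behind each RNA were not given.

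The only Sirt6 probe set read 174 signal units on the knockout-labelled array and 124 on the wild-type array. Where it lies relative to the disrupted part was not given in the sources used here. It therefore does not check the genotype, and every direction below rests on the label. Log2 signals of the arrays correlated across all 45037 probe sets with Pearson's r = 0.98, and their median signals were 60.7 (knockout-labelled) and 60.8. A gene was counted as measured when it lay above a floor of 60.5 signal units, the median brightness of all probe sets, on at least 1 array. That left 11547 measured genes, among them 9 of the 10. The label HSC was set against listed cell type markers. Of 10 markers listed for HSC and early progenitors, 8 were on the array under a probe set of their own and all 8 were measured. The list does not separate HSC from progenitors. On the knockout-labelled array 4 were at least 1.5-fold lower and 0 at least 1.5-fold higher. The 4 were Fgd5 (log2 ratio -1.38), Hlf (-1.13), Procr (-0.87) and Mecom (-0.63). The summed signal of the 8 was 8646 against 10133 in wild type. Much of that sum came from Cd34 (2846 against 2566), Kit (1746 against 1709) and Flt3 (1659 against 1452). These and Slamf1 (-0.10) stayed within 1.5-fold, so the sum shows little of the difference in the 4. All 10 markers listed for granulocytes and their precursors were measured, 8 of them at least 1.5-fold higher. Their summed signal was 33372 against 21431. Mpo (7914 against 5051), Ctsg (7235 against 4141) and Prtn3 (6875 against 5312) gave much of it on both arrays. At that size, 2 of 5 measured B cell markers and 1 of 5 monocyte and macrophage markers were higher, 1 of 4 erythroid markers was lower, and megakaryocyte (2 of 4 lower, 1 higher) and endothelial and stromal markers (2 of 3 lower, 1 higher) went both ways. Background shares over all measured genes at that size were 2.63% lower and 1.71% higher. Of the T and NK cell markers, Cd3d, Cd3e, Cd3g and Cd4 were under the floor on both arrays, while Nkg7 (2094 against 1819) and Cd8a (94.4 against 81.2) were measured on both. In bulk RNA, fewer cells of a type and less RNA per cell cannot be told apart, and the part of these marker differences in the values below was not tested.

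Upstream sequences are shown for Fos, Dusp1 and Jun, which read lower on the knockout-labelled array, and for Junb and Jund, which read higher on their only or brighter probe set (the dimmer Jund probe set read lower), so that both kinds can be compared. Each is the 200 bases before the annotated start, 5′ to 3′ on the gene's strand, from RefSeq on GRCm38.p6. They lie at chr12:85473690-85473889 (plus strand) for Fos, chr17:26508473-26508672 (minus) for Dusp1, chr4:95052223-95052422 (minus) for Jun, chr8:84978749-84978948 (minus) for Junb and chr8:70697539-70697738 (plus) for Jund. Capitals mark matches on either strand to TGACG, the core of the cyclic AMP response element, to TGACNTCA, an 8-base form bound by Jun and Atf proteins, to TGANTCA, the AP-1 site, to the Egr site GCGNGGGCG and to the TATA box TATAAA. The Jund stretch held none of them. It lies before the outermost annotated start of Jund and had 48% GC, against 58% to 68% in the other stretches. Starts further inside the gene were not searched.
Fos: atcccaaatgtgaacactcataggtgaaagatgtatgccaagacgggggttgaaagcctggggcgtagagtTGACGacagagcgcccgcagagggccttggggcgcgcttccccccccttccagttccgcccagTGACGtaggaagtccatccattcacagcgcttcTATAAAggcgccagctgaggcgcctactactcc
Dusp1: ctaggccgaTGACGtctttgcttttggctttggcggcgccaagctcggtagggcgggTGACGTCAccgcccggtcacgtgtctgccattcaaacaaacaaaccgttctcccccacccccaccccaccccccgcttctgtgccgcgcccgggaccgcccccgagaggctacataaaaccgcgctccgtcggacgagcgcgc
Jun: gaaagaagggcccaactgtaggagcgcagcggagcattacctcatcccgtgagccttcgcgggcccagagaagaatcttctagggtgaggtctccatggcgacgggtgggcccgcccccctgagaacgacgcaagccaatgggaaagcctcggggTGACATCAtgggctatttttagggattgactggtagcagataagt
Junb: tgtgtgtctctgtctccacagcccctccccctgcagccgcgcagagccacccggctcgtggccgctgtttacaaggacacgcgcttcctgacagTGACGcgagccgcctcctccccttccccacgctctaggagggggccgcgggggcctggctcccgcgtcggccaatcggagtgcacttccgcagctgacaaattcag
Jund: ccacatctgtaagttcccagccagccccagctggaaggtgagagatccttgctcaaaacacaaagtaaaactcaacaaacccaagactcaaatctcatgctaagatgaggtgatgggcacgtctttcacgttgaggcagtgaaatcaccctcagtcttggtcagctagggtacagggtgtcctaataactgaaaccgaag

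The search covered 250 bases before the start in the 8 genes with an entry (all but Egr1 and Ier2) and in all 32851 RefSeq promoter windows. The Fosb and Nr4a1 windows precede a start that lies inside the gene's longest annotated span. TGACG occurred in 6 of the 8, namely Fos, Fosb, Junb, Dusp1, Nr4a1 and Atf3, against 17.8% of all windows. TGACNTCA, whose form TGACGTCA contains TGACG, occurred in Dusp1, 143 bases before the start as TGACGTCA, and in Jun, 45 bases before it as TGACATCA, against 7.49% of all windows. In Fos the TGACG copies began 129 and 66 bases before the start and the TATA box 33 bases before it, a box that 12.4% of all windows held. The Egr site occurred in Fosb and Nr4a1 (4.70% of all windows). TGANTCA (6.75% of all windows) and the CArG box bound by serum response factor (1.47%) occurred in 0 of the 8 windows. Sites more than 250 bases upstream, sites at other starts of a gene and any site of Egr1 or Ier2 lay outside the search. The counts therefore do not show that the genes lack them. TGACG stood upstream of genes that read lower, such as Fos and Dusp1, and of genes that read higher, such as Fosb and Junb. These matches describe letters in a window and are neither bound sites nor causes.

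Egr1 differed most. It encodes a zinc finger transcription factor that binds GC-rich promoters. Its signal was 887 on the knockout-labelled array and 1464 in wild type, which is 1.65-fold lower (log2 ratio -0.72). It was the only one of the 9 measured genes at least 1.5-fold lower (11.1%, against 2.63% of the 11547 measured genes), and 0 of 9 were at least 1.5-fold higher (background 1.71%). With 9 genes, that share rests on Egr1 alone. None of the 9 reached a 2-fold difference in either direction (background 0.97%). As a gauge of technical error only, log2 ratios of different probe sets of 1 gene differed with an SD of 0.22 over 4632 genes, and of 0.16 over the 689 genes with at least 2 probe sets in the top 10% of signal, a subset chosen after the values were seen. The Egr1 difference is larger than either, but the SD holds no error between animals or RNA preparations.

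**Figure D1:**
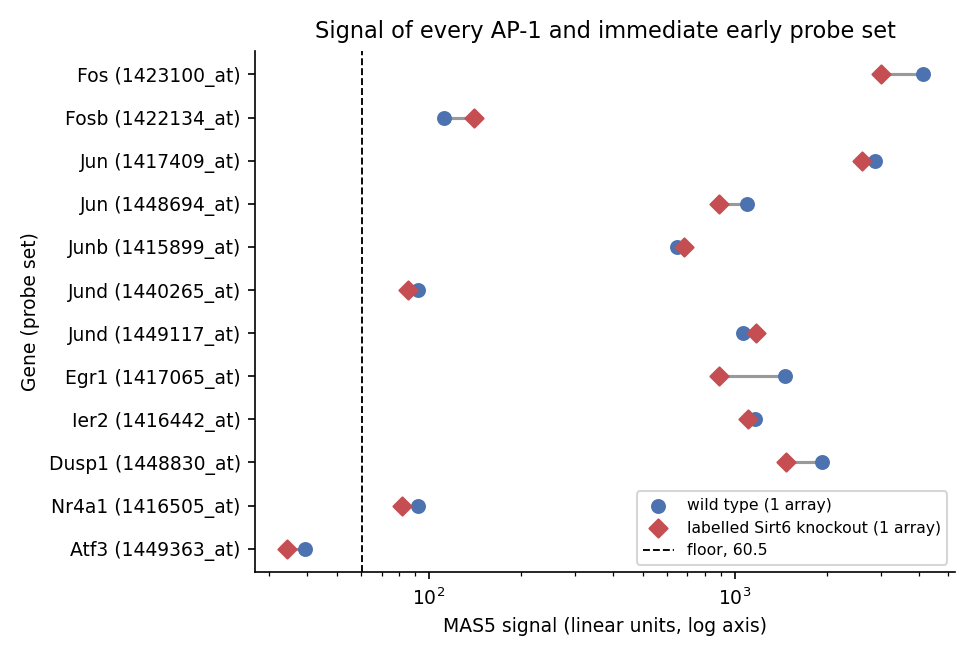
MAS5 signal of each of the 12 probe sets (rows) on the wild-type array (circles) and the knockout-labelled array (diamonds), on a log axis, with the floor of 60.5 as a dashed line. Egr1 shows the widest gap, 887 against 1464, and Atf3 lies left of the floor on both arrays.

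Fos was the lower of the Fos genes by ratio. Its signal was 3010 on the knockout-labelled array and 4130 in wild type, 1.37-fold lower (log2 ratio -0.46). Fosb, which encodes a close relative that also pairs with Jun proteins, went the other way. Its signal was 140 against 112, 1.26-fold higher (log2 ratio 0.33), with both values closer to the floor. The log2 ratios of the Fos genes thus lay on opposite sides of 0, each further from it than the SD of 0.22 between probe sets.

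The Jun genes were closer to equality. Jun, the main transactivating partner of Fos, was read by 2 probe sets made from the same RefSeq transcript. The brighter gave 2602 against 2874 (log2 ratio -0.14) and the other 887 against 1095 (log2 ratio -0.30), so both were lower on the knockout-labelled array. Junb, a partner with weaker transactivation that can oppose Jun, read 685 against 647 (log2 ratio 0.08). Jund, the Jun gene with the steadiest expression in resting cells, read 1171 against 1066 on its brighter probe set (log2 ratio 0.14). Its other probe set, made from an expressed sequence tag, was dim and read 85.5 against 91.9 (log2 ratio -0.10), so the direction of Jund was not shared by its probe sets. Only the second Jun probe set lay further from 0 than 0.22.

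Dusp1 encodes a nuclear phosphatase that inactivates the MAP kinases p38, Jnk and Erk, and so closes the signal that induces these genes. Its signal was 1473 on the knockout-labelled array and 1928 in wild type, 1.31-fold lower (log2 ratio -0.39). Ier2 read 1108 against 1163 (log2 ratio -0.07), the smallest difference among the 12 probe sets. Nr4a1, which with its relatives restrains HSC proliferation, read 81.8 against 92.1 (log2 ratio -0.17), both values near the floor. Atf3, a stress-induced factor of the same dimerising class as Fos and Jun, read 34.4 against 39.2. Both Atf3 values were under the floor, so it is not counted as measured and no fold is given.

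Over the 9 measured genes, 6 log2 ratios were negative and 3 positive, against 49.5% negative among all measured genes. The median was -0.14, beside 0.0023 for all measured genes, and the ratios ran from -0.72 (Egr1) to 0.33 (Fosb). Of the 12 probe sets, 9 read lower on the knockout-labelled array and 3 higher. The 9 include both Jun probe sets, the dimmer Jund probe set and Atf3, which was under the floor on both arrays. The same share over all probe sets was not computed, so this count has no background beside it. Of the measured genes, 4 lay further from 0 than 0.22: Egr1, Fos and Dusp1 below and Fosb above. Among all measured genes, 14.5% lay below by more than that and 13.8% above. The family did not move as a block, and its lower readings were concentrated in Egr1, Fos and Dusp1.

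The members were also set beside genes of like brightness, since ratios of bright genes scattered less. In the top 10% of probe sets by mean signal (above 729 units) there were 3008 genes, 6 of them members. That subset was chosen after the values were seen. Of the 3008, 0.465% passed 1.5-fold downward, 1.03% passed it upward and 47.6% had a negative ratio. Of the 6 members, 5 had a negative ratio. Junb (685 against 647, log2 ratio 0.08) lay just under the cut. Of the other measured members left out, Fosb was positive (0.33) and Nr4a1 negative (-0.17). Counted from the lowest ratio among the 3008, Egr1 ranked 9, Fos 28 and Dusp1 41. Jun ranked 397, Ier2 800 and Jund 2490. Egr1, Fos and Dusp1 thus lay in the lower tail of genes of like brightness, while Jund lay on the other side. The ranks order 2 arrays and are not a test of the genotype.

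**Figure D2:**
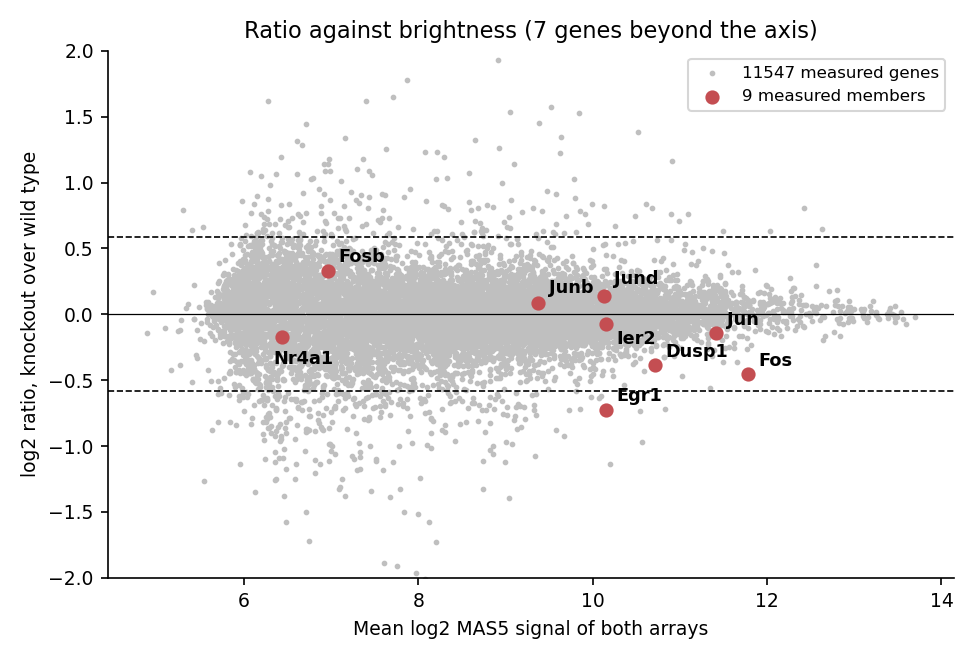
Log2 ratio of the knockout-labelled array over wild type (vertical axis) against mean log2 signal (horizontal axis) for 11547 measured genes (grey) and the 9 measured members (red), with dashed lines at 1.5-fold and 7 genes beyond the axis. Egr1 lies below the lower line at -0.72, and Fos and Dusp1 lie at the lower edge of the cloud at their brightness.

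Most of the genes are short, a feature that the choice of members did not use. Their genomic spans in RefSeq (GRCm38.p6) had a median of 3286 bp and ran from 1522 bp (Ier2) to 20894 bp (Nr4a1), against a median of 22413 bp over 11529 measured genes with a span. Of the 10, 7 spanned at most 5000 bp, against 12.9% of measured genes, and Fosb (7423 bp), Atf3 (13038 bp) and Nr4a1 were longer. The 1493 measured genes of that size had a median log2 ratio of 0.0058, with 2.81% at least 1.5-fold lower and 2.41% higher. Junb, Jund and Ier2 lie on chromosome 8, where 314056 bp separate Ier2 from Junb. Their ratios were 0.08, 0.14 and -0.07.

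Relatives of the members gave a second view. Of 14 other AP-1 family genes listed, 10 were measured. None passed 1.5-fold (background in either direction 4.35%), and the median log2 ratio was 0.05. Of the 10 ratios 7 were positive and 3 negative, against 49.5% negative among all measured genes. The listed genes furthest from 0 were Atf7 (0.39), the small Maf protein Mafg (0.37, and 0.30 on its other probe set), Batf (-0.20), an AP-1 factor of lymphocytes, and Jdp2 (0.19), a repressor of AP-1. Fosl2, a Fos relative, had a log2 ratio of -0.17 on its brighter probe set and 0.23 on the other, while Fosl1, Batf2 and Maff were under the floor on both arrays. Fosl2 and the genes under the floor were named after their values were seen.

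Other immediate early genes stayed within 1.5-fold on their brightest probe set. All 36 listed were on the array and 25 were measured. None of these passed 1.5-fold (background 4.35%), and the median log2 ratio was 0.09. Of the 25, 16 had a positive ratio and 9 a negative one, against 49.5% negative among all measured genes. The clock gene Per1 (0.43), Myc (0.33) and Gadd45a (0.28) were highest in log2 ratio among the 4 furthest from 0, and Gadd45g (-0.33) was the negative one. Within the Egr family, Egr3 read 371 on the knockout-labelled array against 337 in wild type (log2 ratio 0.14), and Egr2 and Egr4 were under the floor. Within the Nr4a family, Nr4a3 read 79.0 against 89.0 (-0.17) and Nr4a2 188 against 171 (0.14), with other Nr4a2 probe sets from -0.26 to 0.40. These family members were named after their values were seen. Whether Egr1 differs from its relatives was not tested.

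On the brightest probe set of each gene, most kinases and factors upstream of the immediate early promoters stayed within 1.5-fold. Of 22 listed, 17 were on the array under a probe set of their own and 16 were measured, with 1 at least 1.5-fold higher (background 1.71%), 0 lower (background 2.63%) and a median log2 ratio of 0.04. The higher one was Mapkapk2, a kinase that acts below p38 and stabilises short-lived messenger RNAs, which read 1010 on the knockout-labelled array against 660 (log2 ratio 0.61, on 1 probe set). Srf, the serum response factor that drives Fos and Egr1, read 577 against 458 (log2 ratio 0.33, and 0.45 on its other probe set). Its coactivator gene Mrtfa read 327 against 236 (0.47), and the kinase gene Map2k4 had a ratio of 0.17. Other probe sets of some genes lay further out: those of Braf ran from -0.38 to 0.78, of the p38 gene Mapk14 from -0.78 to -0.08, of Elk3 from -0.54 to 0.10 and of Creb1 from 0.07 to 0.47. These 4 genes were named after their values were seen. Srf and Mrtfa thus read higher on the array on which Fos and Egr1 read lower, all except Egr1 by less than 1.5-fold.

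Among 9 other MAP kinase phosphatases, all measured, 0 passed 1.5-fold (background 4.35%) and the median log2 ratio was -0.13. Of the 9 ratios 6 were negative, against 49.5% of all measured genes. Dusp16, a phosphatase of Jnk and p38, read 125 against 181 (log2 ratio -0.54) on its only measured probe set. Dusp3 read 177 against 126 (0.50), but its other probe sets gave 0.04 and 0.08. The Erk phosphatase gene Dusp6 had a ratio of 0.26, and Dusp4, under the floor on the knockout-labelled array, was at least 1.15-fold lower. Dusp16 thus lay on the same side of 0 as Dusp1, and Dusp6 on the other.

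Genes often cited as AP-1 targets spread widely. Of 17 listed, 11 were measured, 1 was at least 1.5-fold lower (background 2.63%) and 3 were higher (background 1.71%). The median log2 ratio was 0.21. Of the 11 ratios 9 were positive and 2 negative, against 49.5% negative among all measured genes. Hbegf, an Egf receptor ligand, read 72.9 on the knockout-labelled array against 149.5 (log2 ratio -1.04). Mt1, a metallothionein, read 1560 against 542 (1.53) on a probe set ending in _s_at, a type that can also match related transcripts. The listed metallothionein gene Mt2 read 139 against 138 (0.0065) and was named after its value was seen. Mmp9, a gelatinase that neutrophils store, read 142 against 91.8 (0.63, and 0.32 on its other probe set). For Tgfb1 the brighter probe set gave 0.62 and the other -0.32. Summed signal of the granulocyte and precursor markers was higher on the same array (33372 against 21431). Much of that sum came from Mpo, Ctsg and Prtn3, and its part in the Mmp9 value was not tested.

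Heat shock genes are another class that responds to cell stress. Of 11 listed, 9 were measured, 0 passed 1.5-fold on the brightest probe set (background 4.35%) and the median log2 ratio was -0.04. Of the 9 ratios 7 were negative, against 49.5% of all measured genes. Hsph1, a chaperone of the Hsp110 class, had the largest difference by brightest probe set, 895 against 1183 (log2 ratio -0.40, and -0.16 on its other probe set). Dimmer probe sets of Hsp90aa1 and Hspa8 reached -0.52 and -0.45, against -0.04 and -0.06 on their brightest. Both were named after their values were seen. Dnaja1 had a ratio of -0.22, while Hspb1 (0.26) and Hspa1b (0.22) were positive. Hspa1b, a stress-inducible Hsp70 gene, had 0.09 and 0.12 on its other measured probe sets, and none of its ratios exceeded the probe set SD of 0.22. Its neighbour gene Hspa1a was under the floor and was named after its value was seen.

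**Figure D3:**
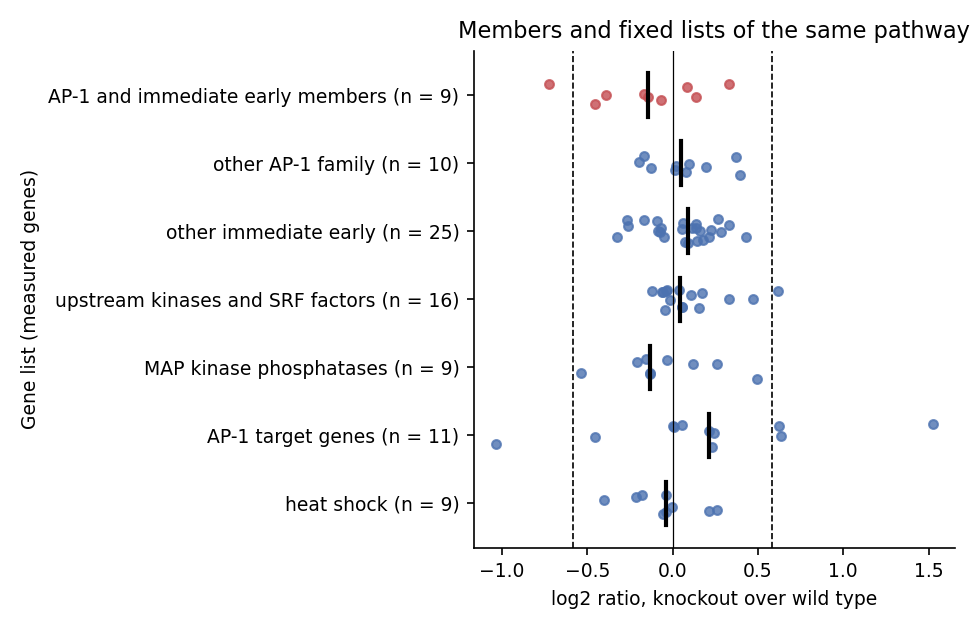
Log2 ratio (horizontal axis) of each measured gene in the 9 members and in 6 listed groups (rows), with the median as a black bar and dashed lines at 1.5-fold. The members' median is -0.14, and the medians of the other groups run from -0.13 (MAP kinase phosphatases) to 0.21 (AP-1 target genes).

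The ratios of Egr1, Fos and Dusp1 moved little under quantile normalization, loess and a pseudocount. With centring on the array median, other floors and no floor included, Egr1 log2 ratios ran from -0.73 to -0.69. Those of Fos ran from -0.49 to -0.45 and those of Dusp1 from -0.40 to -0.37. The floors could not move these ratios, because both signals of each gene lay above every floor used. Centring shifts the ratios of all genes alike. Fosb ranged from 0.22 to 0.39 and was under the floor when that was set at percentile 75. None of the 11 measured probe sets changed sign under these settings.

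**Figure D4:**
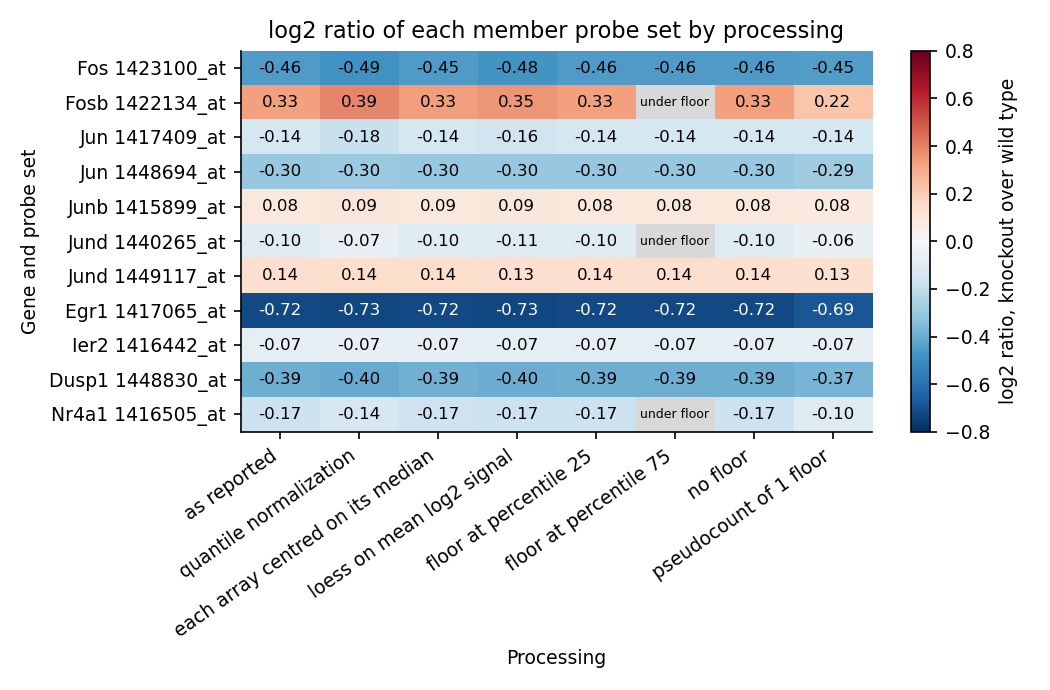
Log2 ratio of the knockout-labelled array over wild type (colour and number) for each measured member probe set (rows) under the reported processing and 7 others (columns), with grey where both values were under the floor. Blue rows (Egr1, Fos, Dusp1, Jun) and red rows (Fosb, Junb and the brighter Jund probe set) keep their colour across the columns.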

How the data were processed

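Total RNA of 2 samples was hybridised to 1 array each. The authors deposited 1 linear intensity per probe set and array, made with MAS5 per the submitters' processing notes. MAS5 summarises and scales each array alone. The scaling target, the version and the detection calls were not given in the sources used here. Of 45037 probe sets, 34945 named 1 gene in the platform annotation, 932 several and 9160 none, and only the first were used. Signals were put on the log2 scale as deposited. A gene took its probe set of highest mean log2 signal. Values under the floor (the median brightness of all probe sets, 5.92 in log2 units) were raised to it, and a ratio against such a value is a lower bound. A gene was measured when above it on at least 1 array.

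With 1 array per genotype no test was possible. Genes were counted past 1.5-fold and 2-fold, beside the same share of all measured genes. The number of arrays limits the precision. The members, gene lists and alternatives were chosen with earlier results of these data known. All members were named, and of each list the genes past 1.5-fold and the 4 furthest from 0. Python 3.11.15 with pandas 2.3.3, numpy 2.4.6 and statsmodels 0.14.6 was used, and the calculations were tested on simulated data. Listed genes that could not be matched to a probe set of their own were not analysed here.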

Additional observations from a re-analysis of the deposited data

How the results depend on the processing

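The alternatives were quantile normalization, centring on the median, loess (span 0.3), a 2-fold size, a lower floor (percentile 25), a higher one (percentile 75) or none, the floor's value added as a pseudocount, the median ratio of all probe sets of a gene, and only probe sets without _x_at or _s_at endings. The count of members at least 1.5-fold lower, 1 (Egr1), was 0 at the 2-fold size and 0 without Egr1, an alternative chosen after seeing the data. The remaining 67 recomputed counts and medians stayed within the limits set for them, as did all 74 recomputed ratios of single probe sets. The limits were 1.5 times for a count and the probe set SD of 0.22 for a log2 value. Every median and several single ratios were smaller in size than 0.22, so that limit would also have passed a change of sign. No median changed sign. That of the other AP-1 family ran from 0.01 to 0.09, and that of the upstream kinases and factors from 0.04 to 0.08. The members' median ran from -0.17 (median over probe sets) to -0.09 (pseudocount), and was -0.11 without Egr1. With the floor at percentile 75, 7 members were measured. With no floor Atf3 was counted and 7 of 10 ratios were negative, against 44.2% of all 18193 genes at that setting. No paired analysis was possible because each group had 1 array. Nr4a1, Fosb, Atf3 and the second Jund probe set were near or under the floor, which limits their ratios most.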

Other observations

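Some listed genes were read by several probe sets, which disagreed in sign for Klf6 and Zfp36l1 and agreed for the others given here. The gene-level ratios of Klf6 and Zfp36l1 thus depend on which probe set is used. The brightest Klf6 probe set had a log2 ratio of 0.14, while the other measured ones ran from -0.75 to 0.13. Zfp36l1, a decay factor for short-lived messenger RNAs, had 0.11 and -0.43. Nfkbia, the feedback inhibitor of NF-kB, was negative on all 5 of its measured probe sets, with -0.27 on the brightest and from -0.15 to -0.10 on the others. Btg2, an antiproliferative immediate early gene, was positive on both, with 0.16 and 0.52. Ccnd1, cyclin D1, listed among the AP-1 targets, was negative on all 3 of its measured probe sets, from -0.55 to -0.38. These genes were named after their values were seen.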
